A study of Sus scrofa with 4 samples.

Results

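The miR-25, miR-92 and miR-363 family groups miRNAs that share 1 seed, bases 2 to 8 from the 5′ end, which pairs with target messenger RNAs. Its members were taken by name from 4 deposited tables of small RNA reads: every row numbered miR-25, miR-92a, miR-92b, miR-363 or miR-32, whatever its species prefix, arm or end variant. This gave 7 rows for 5 miRNAs, among 664 rows in all and 581 with a known miRNA name. The other rows, whose names begin with PC-, were left out of the totals, so every level below is a share of reads outside PC- rows.

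The libraries came from exosomes, small vesicles that carry RNA through body fluids, prepared from the plasma of cord blood drawn when Yorkshire piglets were born. They are IUGR vein, normal vein, IUGR artery and normal artery, where IUGR stands for intrauterine growth restriction and normal piglets were littermates. The umbilical vein brings blood from the placenta into the fetus, and the artery takes fetal blood back. Each library pooled 3 piglets, all blood was taken into EDTA, and the letters N and I in the column names were taken as normal and IUGR, since the sample labels give only the vessel and a number. With 1 library per condition and vessel, no difference between IUGR and normal has a replicate check, and intervals below are 95% counting intervals that leave out the spread between piglets.

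The family is spread over several polycistrons, transcripts from which a number of miRNAs are cut. miR-92a comes from both the miR-17-92 and the miR-106a-363 polycistron, miR-363 from the second of these, miR-25 from miR-106b-25 in an intron of the replication gene MCM7, miR-32 from an intron of TMEM245, and miR-92b from a locus of its own. The miR-17-92 group is known for promoting cell proliferation and survival. Established targets of the shared seed include the apoptosis factor BCL2L11 and the ubiquitin ligase subunit FBXW7, and in endothelium miR-92a represses the transcription factor KLF2 and the integrin ITGA5. miR-92a and miR-25 are abundant in red blood cells.

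The 5 leading sequences are shown because the members share the seed but not all of the bases after it, and miR-363 differed in direction from miR-92a and miR-25 in the results below. They are given as deposited, with T for U, 5′ to 3′, with the seed in capitals.
miR-92a: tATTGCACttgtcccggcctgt
miR-25: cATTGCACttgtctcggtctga
miR-92b: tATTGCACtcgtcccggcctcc
miR-363: aATTGCACggtatccatctgt
miR-32: tATTGCACattactaagttgc
The seed ATTGCAC stood at bases 2 to 8 in 7 of 7 family rows and in no other row of the tables, PC- rows included. Counted from 1 at the 5′ end, miR-25 differs from miR-92a by T1C, C14T, C18T and T22A, and miR-92b by T10C, G21C and T22C. After the seed, miR-25 and miR-92b each keep 11 of 14 bases of miR-92a, whereas miR-363 and miR-32 each keep 3 of 13. G and C make up 63.6% of the longer miR-92b row, 54.5% of miR-92a, 50% of miR-25, 42.9% of miR-363 and 33.3% of miR-32. A second miR-92a row, under a mouse name, differs from the first only by T22A. A second miR-92b row is 20 bases long and lacks the last 2 bases of the first. No family row shared its sequence with another row, 1 row (miR-92a) held fractional reads, and 0 rows came from the opposite 5p arm.

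Reads outside PC- rows numbered 7175 in IUGR vein, 35317 in normal vein, 12327 in IUGR artery and 7527 in normal artery. PC- rows took 55.8%, 13.2%, 38.8% and 45.3% of the reads in the same order. The family held 484.5, 4784, 151.5 and 761 reads. Its share was 6.75% in IUGR vein (interval 6.19 to 7.37%) against 13.5% in normal vein (13.2 to 13.9%), and 1.23% in IUGR artery (1.05 to 1.44%) against 10.1% in normal artery (9.44 to 10.8%). The IUGR libraries were thus the lower of each pair, and IUGR artery stood apart from the other 3 libraries. The libraries carry no stated molecular identifiers, so PCR copies count as separate reads and the intervals cover counting error only.

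**Figure D1:**
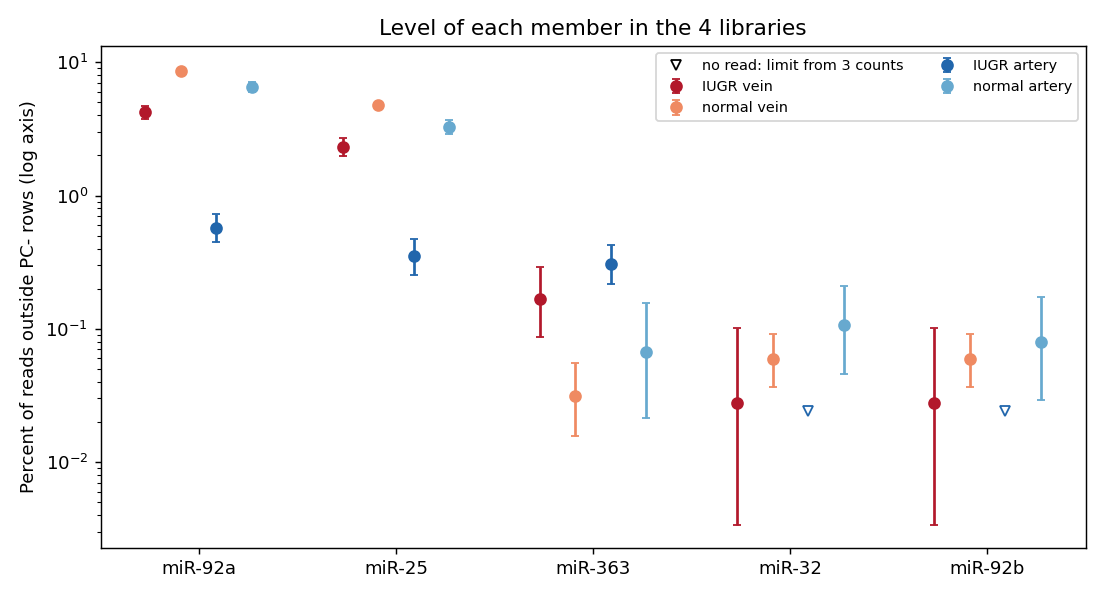
Percent of reads outside PC- rows (log axis) for the 5 members in IUGR vein, normal vein, IUGR artery and normal artery, with exact binomial intervals; open triangles mark the limit that 3 counts allow where no read was present. miR-92a and miR-25 are lower in both IUGR libraries, with 0.572% and 0.349% in IUGR artery, and miR-363 is higher in both, with 0.308% in IUGR artery.

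miR-92a, summed over its rows, had 301.5 reads in the IUGR vein library, against 3052 in normal vein, and 70.5 reads in the IUGR artery library, against 495 in normal artery. As shares these are 4.20% in IUGR vein and 8.64% in normal vein, and 0.572% in IUGR artery and 6.58% in normal artery. Its main row had rank 3 by reads in IUGR vein, 2 in normal vein and 2 in normal artery among rows outside PC-, and rank 34 in IUGR artery.

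miR-25 had 167 reads in the IUGR vein library, against 1679 in normal vein, and 43 in IUGR artery, against 247 in normal artery. Its shares were 2.33% in IUGR vein and 4.75% in normal vein, and 0.349% in IUGR artery and 3.28% in normal artery. It thus followed the order of miR-92a, with normal vein highest and IUGR artery lowest.

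miR-363 ran the other way. It had 12 reads in the IUGR vein library, against 11 in the deeper normal vein library, and 38 in IUGR artery, against 5 in normal artery. Its shares were 0.167% in IUGR vein (0.0864 to 0.292%) and 0.0311% in normal vein (0.0155 to 0.0557%), with intervals that do not meet. In artery they were 0.308% in IUGR (0.218 to 0.423%) and 0.0664% in normal (0.0216 to 0.155%), again without overlap. IUGR artery and IUGR vein overlapped in their intervals, as did normal artery and normal vein, so the order within each condition is not resolved at this depth.

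miR-32 and miR-92b were near the limit of detection. miR-32 had 2 reads in the IUGR vein library against 21 in normal vein, and none in IUGR artery against 8 in normal artery. miR-92b had 2 reads in the IUGR vein library against 21 in normal vein, and none in IUGR artery against 6 in normal artery. No read in IUGR artery allows a share of up to 0.0243% for each at 3 counts, or 0.0299% by the exact interval. In normal artery the shares were 0.106% for miR-32 and 0.0797% for miR-92b.

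In umbilical vein the comparison asks how the exosomal family differs between IUGR and normal piglets. miR-92a was 2.06-fold lower in IUGR vein, with a log2 ratio of shares of -1.04 (interval -1.21 to -0.87), and miR-25 2.04-fold lower, at -1.03 (-1.27 to -0.80). These intervals overlap. miR-363 was 5.37-fold higher in IUGR vein, with a log2 ratio of 2.42 (1.12 to 3.75). miR-32 and miR-92b had the same reads and hence the same log2 ratio of -1.09, with an interval from -4.23 to 0.94 that includes no difference. Of the 7 rows, 5 reached 20 reads over the pair. On log2 of the share per 10000 reads plus 1, 2 of these were at least 2-fold lower in IUGR vein, the main rows of miR-92a and miR-25, and 1 was at least 2-fold higher, miR-363. Among all 116 rows with 20 reads, 19.8% were at least 2-fold lower and 21.6% at least 2-fold higher. The median log2 ratio over these rows was 0.09. Of the family rows counted, miR-32 and the T22A row of miR-92a reached 20 reads through normal vein alone, where they were high. The abundant pair lay just past the 2-fold line, and with miR-451, miR-486 and miR-122 left out of the totals miR-92a stood at -0.89 and miR-25 at -0.88. The family as a whole, 2.01-fold lower in IUGR vein, had a log2 ratio of -1.98 with PC- rows in the totals and -1.61 with median ratio size factors. miR-363 stood at 1.45 with PC- rows in the totals, 1.43 with the authors' normalized values and 1.82 with median ratio size factors.

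In umbilical artery the same question gave wider gaps. miR-92a was 11.5-fold lower in IUGR artery, with a log2 ratio of -3.52 (-3.89 to -3.15), and miR-25 9.41-fold lower, at -3.23 (-3.74 to -2.76). miR-363 was 4.64-fold higher in IUGR artery, at 2.21 (0.87 to 3.92). Against a floor of 3 counts in IUGR artery, and with the normal artery reads taken as exact, miR-32 was at least 4.37-fold lower there and miR-92b at least 3.28-fold lower. With counting error in both libraries, the upper limit of the log2 ratio was -1.48 for miR-32 and -0.95 for miR-92b. Rows with 20 reads over the pair numbered 3 of the 7, of which the main rows of miR-92a and miR-25 were at least 2-fold lower and miR-363 at least 2-fold higher, the last reaching 20 reads through IUGR artery alone. Over all 99 rows with 20 reads, 33.3% were at least 2-fold lower and 42.4% at least 2-fold higher, with a median log2 ratio of 0.59. Many named miRNAs thus differed between the artery libraries, in both directions.

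**Figure D2:**
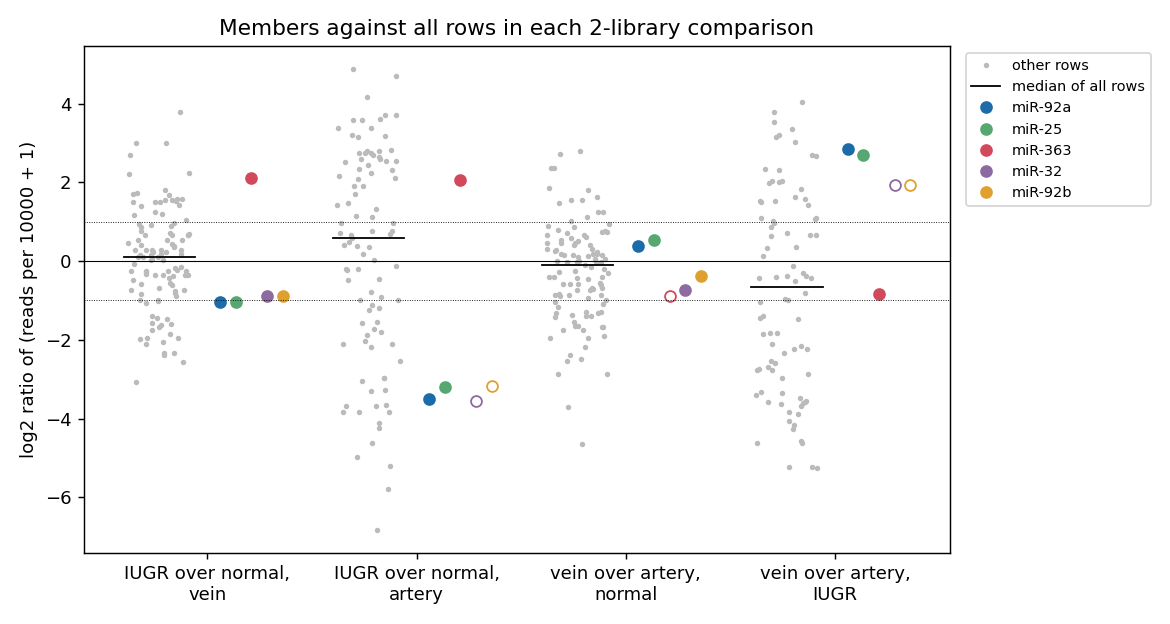
log2 ratio of reads per 10000 plus 1 in the 4 comparisons of 2 libraries; grey points are the other rows with at least 20 reads, black bars the median of all such rows, dotted lines 2-fold, and open circles members with fewer than 20 reads over the pair. In both IUGR over normal comparisons miR-363 lies above 2-fold, at 2.11 in vein and 2.06 in artery, and miR-92a and miR-25 lie below, at -1.04 and -1.03 in vein and -3.50 and -3.20 in artery.

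The authors' deposited table for vein marks 6 of the 7 family rows as different, 5 lower and 1 higher in IUGR vein, where it marks 32.5% of all its rows. The authors' deposited table for artery marks 7 of 7, 6 lower and 1 higher in IUGR artery, where it marks 68.7% of its rows. In both, the row that is higher in IUGR is miR-363. These marks rest on the authors' normalized values and on a test of 2 libraries, not of conditions.

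Ratios between members within 1 library do not depend on how libraries were scaled. Reads of miR-25 per read of miR-92a were 0.554 in IUGR vein (0.455 to 0.670), 0.550 in normal vein (0.518 to 0.584), 0.610 in IUGR artery (0.405 to 0.897) and 0.499 in normal artery (0.427 to 0.582). These 4 intervals overlap, although the miR-92a share spanned 0.572 to 8.64%. Reads of miR-363 per read of miR-92a were 0.0398 in IUGR vein (0.0203 to 0.0704) against 0.00360 in normal vein (0.00180 to 0.00646), and 0.539 in IUGR artery (0.351 to 0.805) against 0.0101 in normal artery (0.00327 to 0.0237). The IUGR and normal intervals stand apart in both vessels.

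**Figure D3:**
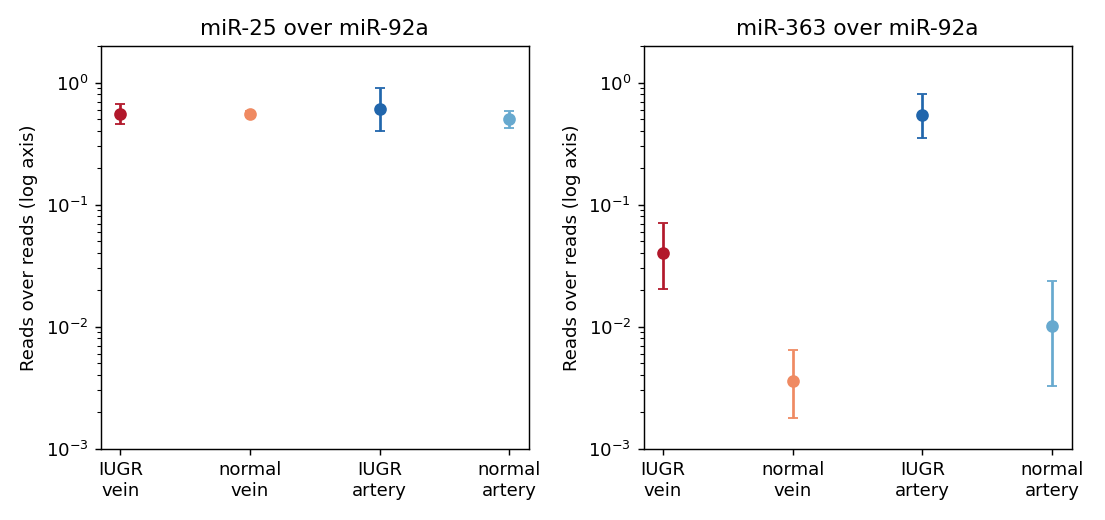
Reads of miR-25 (left) and miR-363 (right) per read of miR-92a within each library, on log axes, with exact binomial counting intervals. The miR-25 ratio runs from 0.499 to 0.610, and the miR-363 ratio from 0.00360 in normal vein to 0.539 in IUGR artery.

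The makeup of the family followed from these ratios. miR-363 was 2.48% of family reads in IUGR vein (1.28 to 4.28%) against 0.230% in normal vein (0.115 to 0.411%), and 25.1% in IUGR artery (18.3 to 32.7%) against 0.657% in normal artery (0.214 to 1.53%). miR-92a made up 62.2% in IUGR vein and 63.8% in normal vein, and 46.5% in IUGR artery (38.6 to 55.0%) and 65.0% in normal artery (61.5 to 68.4%). miR-25 made up 34.5% in IUGR vein and 35.1% in normal vein, and 28.4% in IUGR artery and 32.5% in normal artery. In IUGR artery the family thus held a larger part of miR-363, a member whose bases after the seed are mostly unlike those of miR-92a in the sequences above. The miR-92a row with T22A took 2.32% of miR-92a reads in IUGR vein (0.937 to 4.72%), 2.36% in normal vein (1.85 to 2.96%) and 2.63% in normal artery (1.41 to 4.45%). It had no read in IUGR artery, where 70.5 reads of miR-92a allow a share of up to 5.06%, so no difference in this end variant was detectable.

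**Figure D4:**
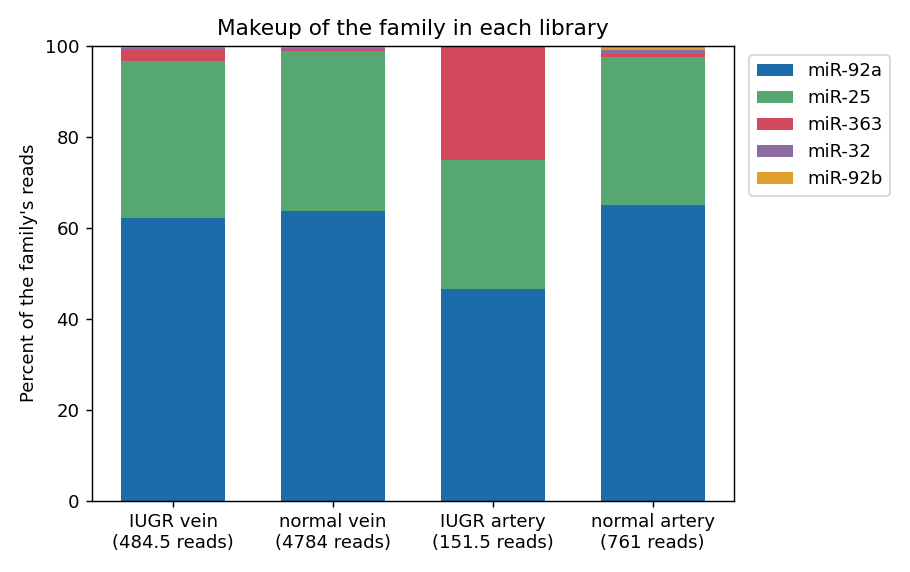
Percent of family reads held by each member in IUGR vein, normal vein, IUGR artery and normal artery, with the family's reads under each bar. miR-363 fills 25.1% of the IUGR artery bar and 2.48%, 0.230% and 0.657% of the bars for IUGR vein, normal vein and normal artery.

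The miRNAs transcribed with the members did not all share their direction. In the RefSeq annotation of Sscrofa 11.1, which was used only for names and order, MIR92A-1 is the last of 6 miRNA genes that begin with MIR17, and MIR363-1 and MIR92A-2 are neighbours at 1 end of another 6 that end with MIR106A. Over the 3 polycistrons, 10 further rows (the most abundant of each number) were set beside the members; miR-17 and miR-106a split the same reads here and count as 2 of them. In artery 9 of them had 20 reads, of which 5 were at least 2-fold lower and 1 at least 2-fold higher in IUGR, beside 33.3% and 42.4% of all rows. Of these 6 mates, 5 had 20 reads in 1 library alone, the one in which they were high: miR-20b in IUGR artery, and miR-17, miR-106a, miR-93 and miR-106b in normal artery. Their count is therefore a description only. In vein 8 had 20 reads, none was past 2-fold, and they ranged from -0.73 to 0.66, with a median of -0.23 against 0.09 over all rows.

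In miR-106b-25 the mates lay near miR-25 in artery. In vein the intervals of miR-25 and miR-93 overlapped, which does not show that they were alike, and their difference was not tested. In artery, miR-93, which shares its seed with miR-17, had 8 reads in IUGR against 46 in normal, a log2 ratio of -3.24 (-4.53 to -2.14). The leading miR-106b row, of the same seed group, had 2 reads in the IUGR artery library against 27.5 in normal artery, at -4.49 (-7.63 to -2.53), and a second row of its sequence holds an equal part of the same reads. Both intervals include the miR-25 value in artery. In vein, miR-93 stood at -0.49 (-0.97 to -0.05) and miR-106b at 0.10 (-0.81 to 0.92), so the -1.03 of miR-25 was below both of their intervals. The interval of miR-25 itself, -1.27 to -0.80, overlaps both of them. Reads of miR-25 per read of miR-93, over its 5p rows, were 3.48 in IUGR vein (2.51 to 4.90) against 5.15 in normal vein (4.57 to 5.82), and 5.38 in IUGR artery (2.50 to 13.2) against 5.37 in normal artery (3.91 to 7.53), with intervals that overlap in each vessel. Per read of miR-106b, over its 5p rows, they were 4.12 in IUGR vein (2.88 to 5.88) against 9.46 in normal vein (8.08 to 11.1), where the intervals do not meet, and 5.73 in IUGR artery (2.50 to 13.2) against 3.21 in normal artery (2.47 to 4.20), where they do.

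In miR-17-92 the mates spread out in artery. miR-17, which shares its sequence here with miR-106a, stood at -2.17 (-2.98 to -1.35) and miR-20a at -1.63 (-2.37 to -0.91), while miR-18a was at -0.52, miR-19b at 0.60 (-0.19 to 1.38) and miR-19a at 0.74 (-0.30 to 1.88). All 5 lay above miR-92a, whose interval ended at -3.15, below the start of each of theirs. In vein, miR-92a again had the lowest value, inside the interval of miR-19b at -0.75 (-1.46 to -0.11), and miR-20a stood at 0.16 (-0.26 to 0.56). Reads of miR-92a per read of miR-20a, over its 5p rows, were 4.86 in IUGR vein (3.70 to 6.51) against 11.2 in normal vein (9.87 to 12.7), and 2.71 in IUGR artery (1.72 to 4.46) against 10.1 in normal artery (7.52 to 13.8).

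The miRNAs of miR-106a-363 also spread out in artery. miR-106a, which splits its reads with miR-17, stood at -2.17 and miR-92a at -3.52, while miR-19b, already given under miR-17-92, was at 0.60. The 1 mate at least 2-fold higher in IUGR artery was miR-20b, which carries the miR-17 seed. It had 28 reads in the IUGR artery library, against 4 in normal artery, a log2 ratio of 2.10 (0.58 to 4.07) beside 2.21 for miR-363. It had no read in IUGR vein and 11 in normal vein, where miR-363 had 12 and 11. A count of 0 allows a miR-20b share of up to 0.0514% in IUGR vein, above its 0.0311% in normal vein, so no difference in vein was detectable. Reads of miR-363 per read of miR-20b were 1.36 in IUGR artery (0.811 to 2.30), 1.25 in normal artery (0.269 to 6.30) and 1.00 in normal vein (0.393 to 2.54), whereas in IUGR vein the lower bound was 2.78. miR-18b had at most 2.5 reads in a library and was not compared.

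**Figure D5:**
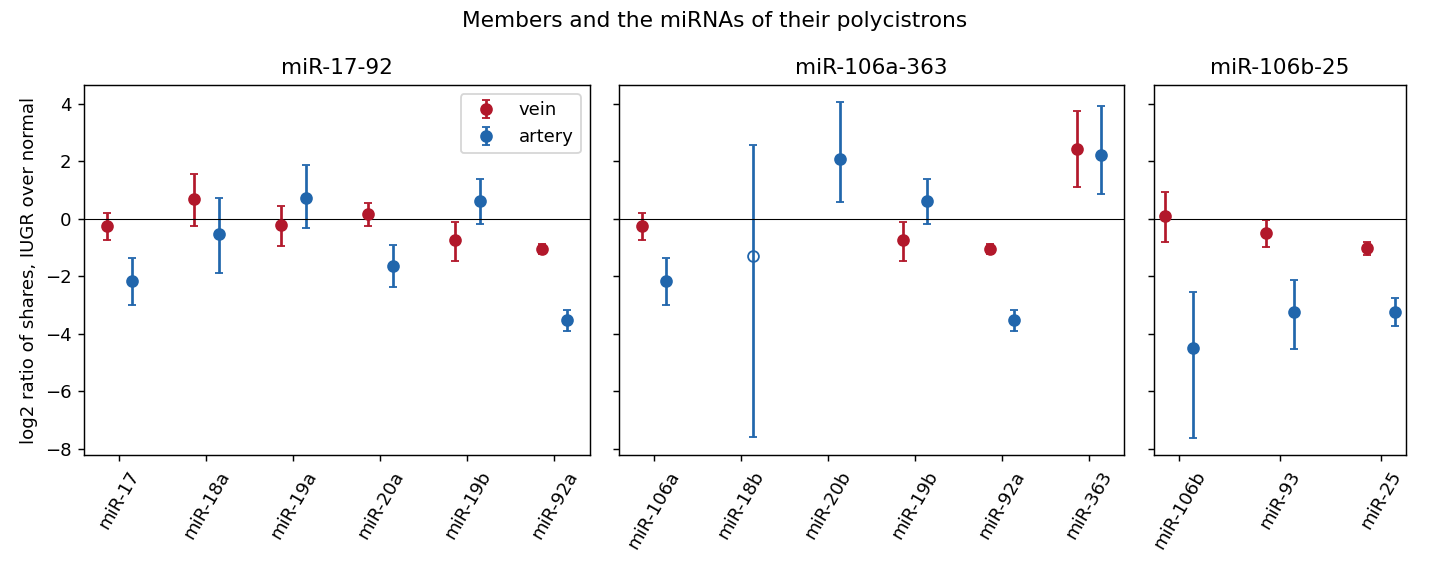
log2 ratio of shares, IUGR over normal, in vein (red) and artery (blue) for each miRNA of the 3 polycistrons that hold members, with counting intervals; an open circle has fewer than 20 reads, and a miRNA with no read in 1 library has no point in that vessel. miR-92a has the lowest artery value of miR-17-92, at -3.52, while miR-20b and miR-363 stand at 2.10 and 2.21.

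Between the vessels, the pair of abundant members was higher in vein, by a larger ratio in IUGR than in normal piglets; the difference between these ratios was not tested. Each library also serves in an IUGR over normal comparison, so these ratios are not separate evidence. In IUGR piglets, miR-92a was 7.35-fold higher in vein than in artery, at a log2 ratio of 2.88 (2.49 to 3.26), and miR-25 6.67-fold higher, at 2.74 (2.25 to 3.26). In normal piglets, miR-92a was 1.31-fold higher in vein, at 0.39 (0.26 to 0.53), and miR-25 1.45-fold higher, at 0.53 (0.34 to 0.73). miR-363 had a log2 ratio of -0.88 (-1.95 to 0.08) in IUGR piglets and -1.09 (-2.74 to 0.78) in normal piglets, both with intervals that include no difference. In IUGR piglets, 2 of 3 family rows with 20 reads were at least 2-fold higher in vein, where 31.1% of all rows were, and none was 2-fold lower, where 45.6% of all rows were. In IUGR piglets, miR-363 reached 20 reads through IUGR artery alone. In normal piglets, miR-32 and the T22A row of miR-92a did so through normal vein alone. There 0 of 4 family rows were past 2-fold, where 12.2% of all rows were higher and 25.2% lower in vein. This count depends on the scaling: in normal piglets, the log2 ratio was 1.06 for miR-92a and 1.20 for miR-25 both with PC- rows in the totals and with median ratio size factors, and 0.99 and 1.13 with the authors' normalized values. The authors' deposited table for IUGR vessels marks 5 of 7 family rows as different, 4 higher and 1 lower in vein, where it marks 46.9% of its rows. Among those higher in vein, miR-32 had 2 reads in IUGR vein and none in IUGR artery. Its lower log2 limit was -1.63, so no difference lay within its interval. The authors' deposited table for normal vessels marks 1 of 7, miR-25, higher in vein, where it marks 39.6% of its rows.

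Vein and artery could be tested over all 4 libraries, 2 per vessel, with the normal and IUGR pools as replicates of a vessel. The spread within a vessel then includes the difference between IUGR and normal, so a lack of calls does not show that the vessels are alike. A fit without normal artery sets IUGR artery against both veins, so there vessel is partly mixed with condition. edgeR's quasi-likelihood test with Benjamini-Hochberg adjustment called 0 of 148 rows (0%), with 21 at an unadjusted p of at most 0.05, while DESeq2 called 3, none of them among the 4 family rows to which it gave an adjusted p. The main miR-92a row had a log2 vein over artery difference of 1.20 and an adjusted p of 0.784 in edgeR, miR-25 1.31 with 0.784, and miR-363 -1.06 with 0.784. Without normal artery, the log2 difference in edgeR was 3.42 for the main miR-92a row, 3.32 for miR-25 and -1.91 for miR-363. It was 7.82 for the T22A row of miR-92a, which had no read in IUGR artery. That fit leaves 1 artery library, so only effect sizes are given.

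Markers of cell types that can shed exosomes also differed between the libraries. The red blood cell list (miR-451, miR-144 and miR-486, 3 of 3 present in each library) took 49.3% of reads in the IUGR vein library against 44.8% in normal vein, and 9.91% in IUGR artery against 40.2% in normal artery. Within it, miR-451 took 43.2% in IUGR vein against 35.8% in normal vein, whereas miR-486 took 4.31% in IUGR vein against 7.82% in normal vein. The liver list (miR-122, miR-192, miR-194 and miR-215, 4 of 4 present) took 2.65% in IUGR vein against 0.207% in normal vein, and 32.8% in IUGR artery against 2.64% in normal artery. The leading rows of miR-192 and miR-215 held equal reads in each library, so they may not be separate signals. Platelet and myeloid miRNAs (miR-223, miR-142, miR-191 and miR-21) took 4.49% in IUGR vein against 6.61% in normal vein, and 1.96% in IUGR artery against 5.58% in normal artery, although miR-21 was at 1.99% in IUGR vein against 1.17% in normal vein, and miR-142 at 1.04% in IUGR artery against 0.917% in normal artery. Endothelial miRNAs (miR-126, miR-221 and miR-222) took 1.98% in IUGR vein against 0.895% in normal vein, and 4.67% in IUGR artery against 1.19% in normal artery, although miR-221 was at 0.167% in IUGR vein against 0.215% in normal vein. The part of these shifts in the family's differences was not tested, and fewer vesicles from a cell type cannot be told apart from less miRNA per vesicle.

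Within a library, the family could be set against single red cell miRNAs. Reads of miR-92a per read of miR-451, the leading red cell miRNA, were 0.0972 in IUGR vein (0.0862 to 0.110) against 0.241 in normal vein (0.232 to 0.251), and 0.0660 in IUGR artery (0.0515 to 0.0846) against 0.206 in normal artery (0.186 to 0.227). Both IUGR ratios lay below both normal ones. Per read of miR-486, an erythroid and muscle miRNA, miR-92a had 0.979 in IUGR vein (0.834 to 1.15) against 1.13 in normal vein (1.07 to 1.19), and 1.26 in IUGR artery (0.881 to 1.83) against 1.44 in normal artery (1.25 to 1.65). The IUGR and normal intervals of this second ratio overlap in each vessel. For miR-363, reads per read of miR-451 were 0.00387 in IUGR vein (0.00200 to 0.00677) against 0.000869 in normal vein (0.000434 to 0.00156), and 0.0356 in IUGR artery (0.0250 to 0.0492) against 0.00208 in normal artery (0.000674 to 0.00486).

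The miRNAs whose pattern was most like that of a member were ranked over the 4 libraries among 139 mature names, by the root mean square difference of centred log2 shares. For miR-92a these were miR-486, at 0.21, let-7d-3p, with 0 to 32 reads, at 0.21, miR-223-3p, a myeloid miRNA, at 0.22, miR-15b, at 0.24, and miR-423-5p, at 0.26. miR-25 was closer than any of them, at 0.11, and miR-363 stood at 2.58. For miR-363 the nearest were miR-126-3p, the main endothelial miRNA, at 0.26, miR-199a-3p, at 0.39, miR-200b-3p, with 1 to 17 reads, at 0.40, let-7b-5p, at 0.40, and miR-130a, at 0.55. miR-126-3p had 0.711% in IUGR vein against 0.258% in normal vein, and 1.90% in IUGR artery against 0.438% in normal artery. The likeness is over 4 libraries that differ in depth and in PC- share, and is a description only.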

How the data were processed

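Small RNA libraries were made from plasma exosomes with a TruSeq small RNA kit, each from a pool of 3 piglets, and sequenced from 1 end over 36 bases, per the labels' protocols. The submitters' processing notes name the build Sscrofa 10.2, while aligner and counting method are not stated there or in the labels. Each of the 4 tables that the authors deposited sets 2 libraries side by side. Raw columns hold estimated counts, in which reads shared between rows are split, per the file headers and values. Normalized columns hold a signal, the deposited raw reads times 1 factor per library (4.70 in IUGR vein, 1.90 in normal vein, 3.18 in IUGR artery and 5.89 in normal artery), whose origin the headers do not state.

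Rows were matched across tables on name plus sequence, with 0 for a library in which a row is not listed. A vessel was read from the tables' names and IUGR or normal from the column letters. Shares have exact binomial (Clopper-Pearson) intervals and ratios exact conditional binomial ones, on rounded reads (scipy 1.17.1). The 2-fold counts used rows with at least 20 summed reads and log2 of the share per 10000 plus 1. edgeR 4.0.16 (quasi-likelihood, TMM, limma 3.58.1, R 4.3.3) and DESeq2 1.42.0 were run on counts rounded to whole numbers, for rows with at least 20 reads over the 4 libraries and an adjusted p of at most 0.05. Intervals and the edgeR fit were tried on simulated data. For edgeR, 37 of 148 rows were changed by a log2 of 3, and 75.7% of them were recovered with 0 false calls. The simulated spread was set beforehand and not taken from these libraries, so this gives no power or error rate for the real data. Vein and artery pools of a condition were read as the same piglets, and pool was a block in an alternative. The correlation of their deviations from the vessel mean was 0.56 over 148 rows. With 2 libraries per vessel, these deviations reflect only the difference between normal and IUGR. The correlation therefore cannot show that the piglets were the same.

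Named miRNAs were the members, the most abundant row of each polycistron number, the marker lists and the 5 names nearest in pattern to miR-92a and to miR-363. Members and lists were chosen with earlier results of these data known. The labels do not say that pools of 1 vessel are replicates of each other. The p-values thus measure a difference against the spread between these libraries, which includes the difference between IUGR and normal. Of 17 polycistron gene names looked up in the RefSeq annotation, 14 were matched. MIR25, MIR93 and MIR106B were not, so the miR-106b-25 group was not checked in this annotation.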

Additional observations from a re-analysis of the deposited data

How the results depend on the processing

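The family's log2 ratio kept its sign in each comparison under each alternative tried, but its size moved with the scaling. For IUGR over normal in vein, where the family was 2.01-fold lower as reported, the log2 ratio was -1.98 with PC- rows in the totals, -2.00 with the authors' normalized values, -1.61 with median ratio size factors and -0.85 without miR-451, miR-486 and miR-122 in the totals. In artery, -3.04 as reported, it was -2.53 with median ratio size factors. Vein over artery in normal piglets, 0.42 as reported, was 1.09, 1.02, 1.09 and 0.56 in the order of the vein settings. In IUGR piglets, 2.46 as reported, it was 1.99 with PC- rows, 2.01 with median ratio size factors and 2.91 without the 3 miRNAs. These scalings shift every row alike, by -0.97, -0.99, -0.60 and 0.15 for IUGR over normal in vein. miR-363 ran from 1.43 to 2.58 in vein and from 2.04 to 2.73 in artery. Of 80 member values, 76 kept their sign, and the other 4 were miR-92b in vein over artery of normal piglets, from 27 reads in all. Ratios with no read in a library are not among the 80. The alternative that kept only each member's most abundant row cannot change miR-25, miR-363 or miR-32, which have no other row.

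For vein against artery, DESeq2 called 3 rows, and leaving out each library in turn gave 0 to 47, the 47 of 148 (31.8%) without normal artery, where 2 of 6 family rows were called. The replicate block (pool) called 0, and so changed no call. The share of rows at least 2-fold lower in IUGR vein ran from 11.3 to 24.0% over other minimums and pseudocounts, and in IUGR artery from 33.3 to 46.3%. Rows at least 2-fold higher ran from 16.4 to 23.3% and from 20.7 to 43.4%. Depth limits miR-32, miR-92b and miR-20b.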
